A study of Homo sapiens and Mus musculus with 21 samples.

Results

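SW620 is a human colon carcinoma line derived from a lymph node metastasis. The libraries described here are 3 of caecum from mice carrying SW620 tumours that express dnLEF1 (the group SW620_dnLEF1) and 3 of caecum from mice injected with phosphate-buffered saline (PBS), 6 of the 21 libraries of the study. They were chosen by their sample labels, and only the table of mouse genes was used. How human and mouse reads were separated is not given in the sources used here, and whether human reads were assigned to mouse genes was not tested. dnLEF1 is a form of LEF1, a transcription factor of the Wnt pathway, that blocks the action of the normal protein; it was introduced into the tumour cells by lentivirus. No label gives dnLEF1 to the host.

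All hosts were NSG mice, an immunodeficient strain, and were kept for 28 days before harvest. In the xenograft groups 500000 cells were injected into the caecum wall. PBS mice were injected with PBS in place of cells. The other groups used below are SW620 with LRP6 targeted by CRISPR/Cas9 (SW620_LRP6KO), SW620 transfected and sorted as a CRISPR/Cas9 control (SW620_Cas9), SW620 after mock lentiviral transduction (SW620_Mock), and SW480, a human colon carcinoma line from a primary tumour, with dnLEF1 (SW480_dnLEF1) or mock transduction (SW480_Mock), each with 3 libraries. The labels give neither age nor sex of the mice and do not tie each library to its own animal. The p-values below therefore set group differences against the spread between libraries, which is not known to be that between animals. For the limma tests this spread was pooled over all 7 groups.

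The caecum wall holds an epithelium of absorptive and secretory cells, a stroma of fibroblasts, vessels and immune cells, and layers of smooth muscle with enteric nerves. A tumour growing in the wall adds host cells of its own stroma and displaces normal wall. NSG mice lack mature T and B lymphocytes and natural killer cells and keep granulocytes and macrophages. The libraries were made from a fragment of frozen tissue, so less RNA of a gene can mean fewer cells of a type or less RNA per cell, and the 2 cannot be told apart.

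Values are TPM, transcript abundances scaled by length and summing to 1000000 mouse transcripts per library. They keep no sequencing depth, and the value of a gene can also fall when other transcripts take a larger share. The table names genes by Ensembl identifier alone, and 0 of its 54146 identifiers stood in the gene-name tables used here. No symbol or role is therefore attached to any identifier, the caecal cell types could not be checked against marker genes, and the response is described by its size, level and pattern over the libraries.

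Fewer mouse genes had a value above 0 in SW620_dnLEF1 than in PBS caecum. The SW620_dnLEF1 libraries held 24503, 24350 and 27749 such genes, against 29434, 34060 and 33355 in PBS libraries. The groups did not overlap, and the exact two-sided permutation p of 0.10 is the smallest that 3 against 3 allows. The 50 most abundant genes held 25.8% to 29.0% of mouse TPM in SW620_dnLEF1 libraries and 25.5% to 25.9% in PBS libraries. The mean correlation of a library with the others of its group was 0.946 to 0.949 in SW620_dnLEF1 and 0.956 to 0.958 in PBS, and the SW620_dnLEF1 libraries correlated with PBS libraries at 0.914 to 0.931. SW620_LRP6KO replicate 1 had 37521 genes above 0, against 27059 and 26095 in the other libraries of its group, and SW480_Mock replicate 2 had 38985, the highest number of the 21 libraries.

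How does caecum carrying SW620 dnLEF1 tumours differ from caecum without tumour? Of 19672 mouse genes tested, 1699 were higher and 586 lower in SW620_dnLEF1 than in PBS, which is 8.64% and 2.98% of the genes tested. The test was limma on log2(TPM + 1) with all 7 groups in the fit, at a Benjamini-Hochberg adjusted p of 0.05 over all genes tested. The called higher genes had a median difference of 0.97 on the log2(TPM + 1) scale and the called lower genes of -0.81, while the median over all genes tested was 0.03. With libraries scaled by their median ratio, the calls were 1543 upward and 948 downward, and upward calls made up 61.9% of them in place of 74.4%. Without PBS replicate 1 the count of calls was 1443 and without PBS replicate 3 it was 1501, in place of 2285. A limit of at least 5 TPM in the mean was added because of the difference in genes above 0. Of the 10560 genes tested under it, 1325 were higher and 554 lower, both larger shares than without the limit.

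Most called differences were moderate in size. A difference of at least 1 on the log2 scale, which is 2-fold in TPM + 1, was reached by 799 of the higher and 207 of the lower genes. At least 2 was reached by 125 higher and 67 lower genes, and at least 3 by 39 higher and 37 lower genes. The 3 SW620_dnLEF1 and 3 PBS libraries did not overlap in 1681 of the called higher and 571 of the called lower genes. Over all genes tested the groups did not overlap upward in 19.5% and downward in 10.3%. The calls were made on these same libraries, so the separation of called genes follows largely from the selection and is no further test.

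**Figure D1:**
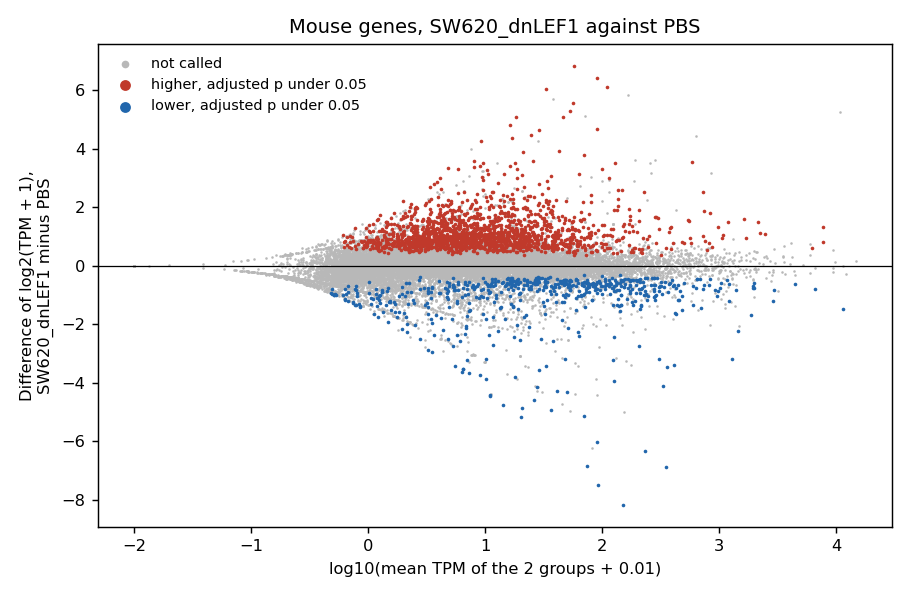
Difference of log2(TPM + 1), SW620_dnLEF1 minus PBS, for each of 19672 mouse genes against the log10 mean TPM of the 2 groups, with genes at an adjusted p under 0.05 in red (1699 higher) and blue (586 lower). Higher genes are spread over the middle of the level range, and the line of blue points along the lower edge consists of genes at or near 0 in SW620_dnLEF1.

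The direction of the calls differed with the abundance of the genes. Among genes with a mean of 5 to 20 TPM over all 21 libraries, 664 of 5220 (12.7%) were higher and 128 (2.45%) lower in SW620_dnLEF1. Among genes with a mean of 20 to 100 TPM, 10.4% were higher and 4.59% lower. Among the 1487 genes over 100 TPM the order was turned round, with 108 (7.26%) higher and 158 (10.6%) lower. In the lowest class, under 1 TPM, 0.66% were higher and 1.32% lower. The median difference over all genes of a class ran from -0.12 under 1 TPM through 0.12 at 5 to 20 TPM to -0.04 over 100 TPM.

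**Figure D2:**
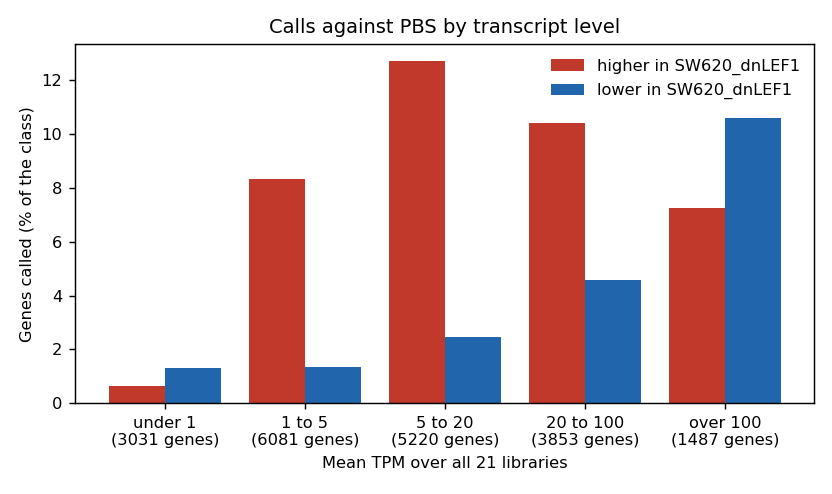
Percent of tested genes called higher (red) or lower (blue) in SW620_dnLEF1 against PBS, in 5 classes of mean TPM over all 21 libraries. Higher calls outnumber lower calls from 1 to 100 TPM, and lower calls outnumber higher calls under 1 and over 100 TPM.

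In terms of transcript share, the 1699 higher genes held 10.7%, 12.1% and 11% of mouse TPM in the SW620_dnLEF1 libraries, against 5.44%, 5.48% and 4.65% in the PBS libraries. The 586 lower genes held 7.06%, 5.77% and 7.10% in SW620_dnLEF1 and 13.5%, 11.5% and 14.1% in PBS. These genes were selected on the same libraries, so the shares describe the size of the change and carry no test. Median differences from the PBS mean in the 3 SW620_dnLEF1 libraries were 0.94, 1.03 and 0.97 over the higher genes. Over the lower genes they were -0.89, -0.85 and -0.71. The calls favour genes in which these libraries agree, so their likeness here is no test.

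The largest called increases without overlap were in 2 genes that were at or near 0 in PBS. ENSMUSG00000084817.3 was at 83.5, 127 and 136 TPM in SW620_dnLEF1 libraries and was listed at 0 in all 3 PBS libraries (limma adjusted p 2.85e-07). It was above 0 in all 18 xenograft libraries, at 39.8 to 123 TPM in SW620_LRP6KO, 75.2 to 182 TPM in SW620_Cas9, 41.6 to 78.6 TPM in SW620_Mock, 15.0 to 21.3 TPM in SW480_dnLEF1 and 11.7 to 43.3 TPM in SW480_Mock. In this gene tumour-bearing and PBS libraries do not overlap in any group, and SW480_dnLEF1 lies below all 4 SW620 groups. The part of human reads assigned to this identifier was not tested. The difference of SW620_dnLEF1 from SW480_dnLEF1 was 2.53 (SE 0.46, limma adjusted p 0.00739).

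ENSMUSG00000047562.3 was at 99.5, 216 and 221 TPM in SW620_dnLEF1 and at 1.2, 0.60 and 1.13 TPM in PBS. The means were 179 ± 68.7 TPM in SW620_dnLEF1 and 0.977 ± 0.328 TPM in PBS (SD, n = 3 each), a log2 difference of 6.43 (SE 0.61, limma adjusted p 7.62e-06). This gene varied widely among tumours. It reached 42.7 to 133 TPM in SW620_LRP6KO and 105 to 311 TPM in SW620_Cas9, but 10.98 to 55.9 TPM in SW620_Mock, 2.14 to 5.76 TPM in SW480_dnLEF1 and 9.28 to 38.5 TPM in SW480_Mock. SW620_dnLEF1 exceeded SW480_dnLEF1 by 5.12 (SE 0.61, limma adjusted p 4.02e-04), and its difference from SW620_Mock was 3.02 (SE 0.61, limma adjusted p 0.0744), which did not pass.

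The largest called decreases without overlap were in 2 genes listed at 0 in every SW620_dnLEF1 library, for which no fold is given. ENSMUSG00000079600.2 was at 405, 185 and 319 TPM in PBS, and ENSMUSG00000077829.1 at 132, 192 and 225 TPM (limma adjusted p 0.0286 and 0.0109). Neither pattern was shared evenly by the other tumours. ENSMUSG00000079600.2 was at 0 in all SW620_LRP6KO libraries but ranged from 0 to 1049.93 TPM in SW620_Mock, with 2 of its 3 libraries at 0, and from 89.9 to 216 TPM in SW480_dnLEF1. ENSMUSG00000077829.1 ranged from 0 to 239 TPM in SW620_LRP6KO, from 0 to 17.6 TPM in SW620_Cas9 and from 90.9 to 198 TPM in SW620_Mock. Both genes were listed at 0 in some libraries and at over 50 TPM in others of SW480_Mock. The call of ENSMUSG00000079600.2 was lost when any one of the 6 libraries was left out and when genes at low values were not filtered out, with adjusted p from 3.78e-05 to 0.0842 over its 14 alternatives. The lowest, 3.78e-05, was with only the compared groups in the fit. The main fit pools the spread of all 7 groups, among them the wide ranges of SW620_Mock and SW480_Mock in this gene.

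**Figure D3:**
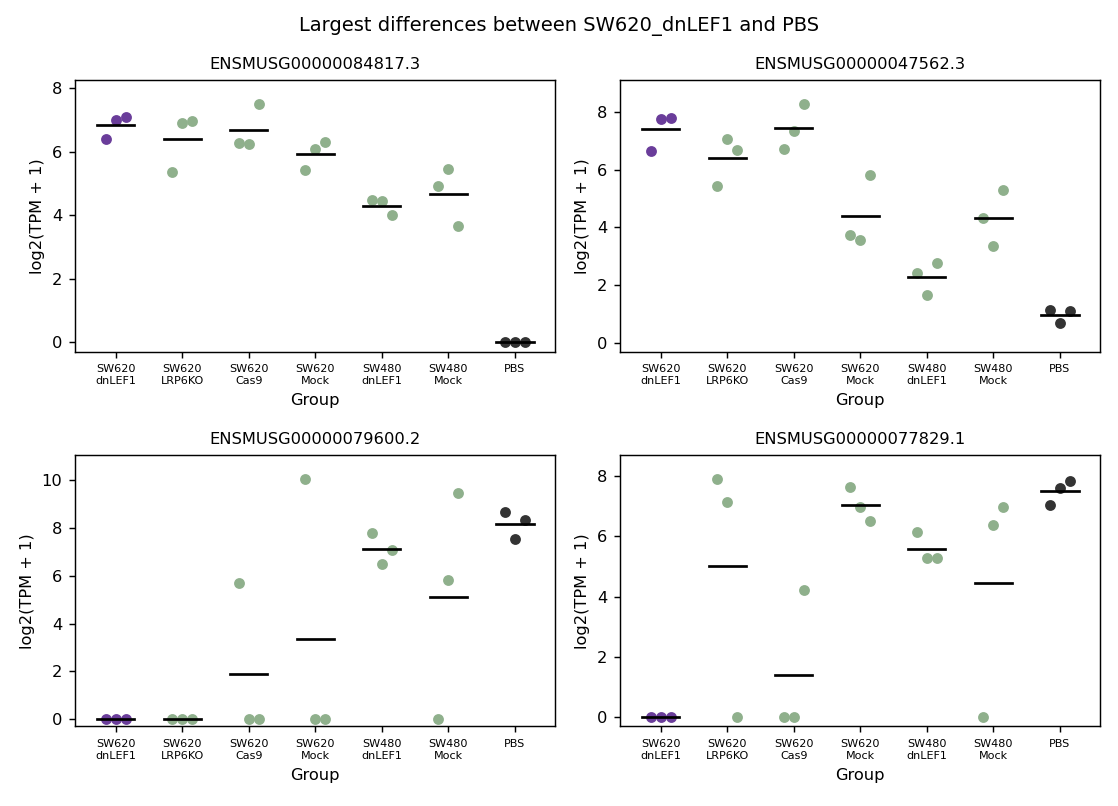
log2(TPM + 1) of the 2 genes with the largest called increase (upper row) and the 2 with the largest called decrease (lower row) in SW620_dnLEF1 against PBS, 1 point per library and a bar at the group mean, in all 7 groups. The increased genes separate every SW620_dnLEF1 library from every PBS library, which was required for naming. The decreased genes are at 0 in SW620_dnLEF1 but scatter within SW620_Mock, SW480_Mock or SW620_LRP6KO.

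Few of the called genes were listed at 0 throughout one of the 2 groups. Of the called higher genes 10 were listed at 0 in all PBS libraries, and of the called lower genes 41 were listed at 0 in all SW620_dnLEF1 libraries. Without them the median log2 differences were 0.97 and -0.77. With a mean of at least 5 TPM and every library of the other group above 0, 6 genes were at 0 throughout PBS and 22 at 0 throughout SW620_dnLEF1. Genes above 0 were also fewer in SW620_dnLEF1 libraries, as given above, and the part of this in the 0 values was not tested. Only 3 of all 54146 genes were at 0 in every PBS library and above 0 in all 18 xenograft libraries. All 3 were called, with mean levels in SW620_dnLEF1 of up to 116 TPM.

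Do hosts of dnLEF1 tumours differ from hosts of mock-transduced tumours of the same line? By the direct test, 5 of 19672 genes (0.0254%) differed between SW620_dnLEF1 and SW620_Mock, 3 higher and 2 lower. An unadjusted limma p under 0.05 was reached by 2364 genes. Against the shared PBS libraries the counts were 2285 for SW620_dnLEF1 (11.6%) and 535 for SW620_Mock (2.72%), beside 2447 for SW620_LRP6KO (12.4%), 3128 for SW620_Cas9 (15.9%) and 465 for SW480_Mock (2.36%). Counts against PBS do not test whether tumour groups differ, and the direct test does.

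ENSMUSG00000031972.5 was at 38.4, 55.7 and 52.0 TPM in SW620_dnLEF1, at 11.3, 10.6 and 20.6 TPM in SW620_Mock and at 15.1, 14.7 and 14.5 TPM in PBS. The log2 difference from SW620_Mock was 1.75 (SE 0.24, limma adjusted p 0.0119), and the range of SW620_Mock held all PBS values. ENSMUSG00000072941.5 was at 21.1, 18.4 and 16.9 TPM in SW620_dnLEF1 and at 5.28, 6.32 and 9.80 TPM in SW620_Mock (log2 difference 1.32, SE 0.21, limma adjusted p 0.0423). This call was lost in 7 of 14 alternatives (adjusted p from 0.00565 to 0.25). Its PBS libraries, at 3.18 to 4.31 TPM, lay below both tumour groups.

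ENSMUSG00000034785.14 was at 28.6, 24.8 and 38.7 TPM in SW620_dnLEF1, against 74.5, 81.3 and 67.5 TPM in SW620_Mock (log2 difference -1.27, SE 0.16, limma adjusted p 0.00592). ENSMUSG00000029499.11 was at 8.46, 6.25 and 7.25 TPM in SW620_dnLEF1, against 14.9, 15.5 and 14.9 TPM in SW620_Mock (log2 difference -0.96, SE 0.14, limma adjusted p 0.0119). Both were lower in every SW620_dnLEF1 library than in any SW620_Mock or PBS library. The fifth gene was listed at 0 in all SW620_Mock libraries and averaged 4.20 ± 3.05 TPM in SW620_dnLEF1 (SD, n = 3), under the 5 TPM required for naming. These 4 genes were also called against PBS, with log2 differences of 1.64, 2.09, -1.52 and -0.83 in the order given.

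Levels on the same side of SW620_Mock were measured in tumours without dnLEF1. ENSMUSG00000031972.5 was at 41.2 to 56.1 TPM in SW620_LRP6KO and 62.3 to 81.5 TPM in SW620_Cas9, above all SW620_Mock libraries. ENSMUSG00000034785.14 was at 37.6 to 44.4 TPM in SW620_LRP6KO and 34.0 to 41.3 TPM in SW620_Cas9, below all SW620_Mock libraries. Each of the 4 named calls was lost with only the compared groups in the fit (adjusted p 0.0819 to 0.17), and the count depended on single libraries. The count was 12 without SW620_dnLEF1 replicate 3, 2 without SW620_Mock replicate 2, 143 without SW620_Mock replicate 3, and 0 without SW620_dnLEF1 replicate 2 or without SW620_Mock replicate 1, where 2062 and 1835 genes had an unadjusted limma p under 0.05.

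**Figure D4:**
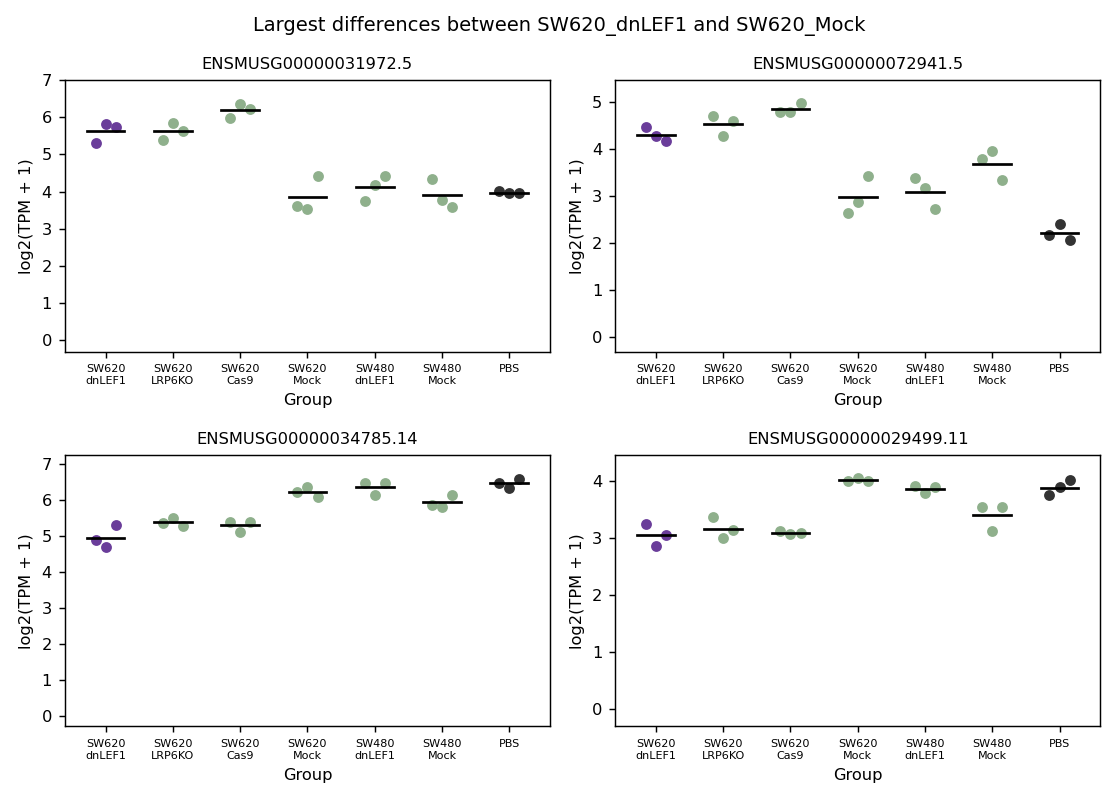
log2(TPM + 1) of 4 of the 5 genes that differed between SW620_dnLEF1 and SW620_Mock, 2 higher (upper row) and 2 lower (lower row), 1 point per library and a bar at the group mean, in all 7 groups. SW620_LRP6KO and SW620_Cas9 libraries lie on the side of SW620_dnLEF1 in each gene, away from SW620_Mock.

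Direct tests against the other SW620 groups, added after the counts against PBS were seen, gave few calls. Between SW620_dnLEF1 and SW620_Cas9 2 genes (0.0102%) differed, both lower in SW620_dnLEF1, with 1352 genes at an unadjusted limma p under 0.05. Between SW620_dnLEF1 and SW620_LRP6KO limma called 0 genes (0%), with 1122 at an unadjusted p under 0.05. A p that misses the threshold does not show that these hosts were alike.

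Direct tests called more genes between hosts of the 2 lines carrying dnLEF1 than among the SW620 groups. Between SW620_dnLEF1 and SW480_dnLEF1, 399 genes were higher and 193 lower in SW620_dnLEF1 (2.03% and 0.981% of the genes tested, together 3.01%). Against PBS, SW480_dnLEF1 gave 58 calls (0.295%). Of the 1699 genes higher than in PBS in SW620_dnLEF1, 387 were also higher than in SW480_dnLEF1, and of the 586 lower genes 149 were also lower. The SW620_dnLEF1 libraries enter both comparisons, so the counts are not independent. Between SW620_dnLEF1 and SW480_Mock, also added later, 47 genes differed (0.239%). An unadjusted limma p under 0.05 was reached by 3294 genes against SW480_dnLEF1 and by 3144 against SW480_Mock. No test compared the sizes of these differences. Leaving out SW480_dnLEF1 replicates 1, 2 and 3 in turn gave 891, 166 and 189 calls against SW480_dnLEF1, and leaving out SW620_dnLEF1 replicates 1, 2 and 3 gave 387, 223 and 311.

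Beside ENSMUSG00000047562.3, the largest called increase over SW480_dnLEF1 without overlap was in ENSMUSG00000056071.12. It was at 134, 93.9 and 87.9 TPM in SW620_dnLEF1, at 2.27, 1.17 and 5.79 TPM in SW480_dnLEF1 and at 1.47, 2.66 and 1.05 TPM in PBS. The log2 difference from SW480_dnLEF1 was 4.84 (SE 0.90, limma adjusted p 0.00767). SW480_dnLEF1 libraries lay close to PBS in this gene, while SW480_Mock ranged from 2.90 to 70.5 TPM. The other SW620 groups were at 91.5 to 687 TPM (SW620_LRP6KO), 84.0 to 285 TPM (SW620_Cas9) and 22.5 to 94.7 TPM (SW620_Mock). The difference of SW620_dnLEF1 from SW620_Mock was 1.33 (SE 0.90, limma adjusted p 0.581), which did not pass.

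The largest called decrease without overlap was in ENSMUSG00000031258.4, at 4.07, 1.15 and 13.6 TPM in SW620_dnLEF1, 252, 588 and 219.51 TPM in SW480_dnLEF1 and 300.95, 419.5 and 656 TPM in PBS. The log2 difference from SW480_dnLEF1 was -5.88 (SE 1.30, limma adjusted p 0.0216). This call was lost in 5 of 14 alternatives, namely without a filter on low values and without SW620_dnLEF1 replicate 1 or 2 or SW480_dnLEF1 replicate 2 or 3 (adjusted p from 0.00185 to 0.108 over all 14). SW620_Mock, at 154 to 468 TPM, did not overlap with SW620_dnLEF1 either (log2 difference -5.74, SE 1.30), but this difference did not pass (limma adjusted p 0.0961). The remaining SW620 groups varied widely in this gene, from 2.91 to 172.99 TPM in SW620_LRP6KO and from 1.64 to 104.53 TPM in SW620_Cas9. ENSMUSG00000093276.1 was listed at 0 in all SW620_dnLEF1 and all SW620_Cas9 libraries. It was at 9.80, 23.7 and 9.89 TPM in SW480_dnLEF1 (limma adjusted p 0.0115) and at 2.43, 28.9 and 30.1 TPM in PBS. The 0 values were not shared by all SW620 tumours. This gene was at 4.92 to 23.18 TPM in SW620_LRP6KO and at 11.04 to 38.57 TPM in SW620_Mock. Its log2 difference between SW620_dnLEF1 and SW620_Mock was -4.44 (SE 0.76, limma adjusted p 0.0562), which did not pass.

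The genes called in SW620_dnLEF1 had these values in the other tumours, each set against the same 3 PBS libraries. Over the 1699 higher genes the median log2 difference from PBS was 0.97 in SW620_dnLEF1, 0.98 in SW620_LRP6KO, 1.15 in SW620_Cas9, 0.58 in SW620_Mock, 0.38 in SW480_dnLEF1 and 0.56 in SW480_Mock. Over the 586 lower genes it was -0.81, -0.67, -0.68, -0.29, -0.22 and -0.45 in the same order. The PBS libraries are common to all of these, and the genes were chosen for SW620_dnLEF1, so the values are a description.

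The number of mouse genes above 0 also differed among the groups. It was 24350 to 27749 in SW620_dnLEF1, 26095 to 37521 in SW620_LRP6KO, 25328 to 29598 in SW620_Cas9, 29901 to 31709 in SW620_Mock, 34288 to 35251 in SW480_dnLEF1 and 33442 to 38985 in SW480_Mock. The part of this measure in the differences was not tested. SW620_LRP6KO replicate 1, with 37521 genes above 0, had a median difference of 0.91 over the higher genes, against 0.95 and 1.06 in the other libraries of its group. This is a single library and the genes were chosen for SW620_dnLEF1, so no conclusion is drawn from these values.

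**Figure D5:**
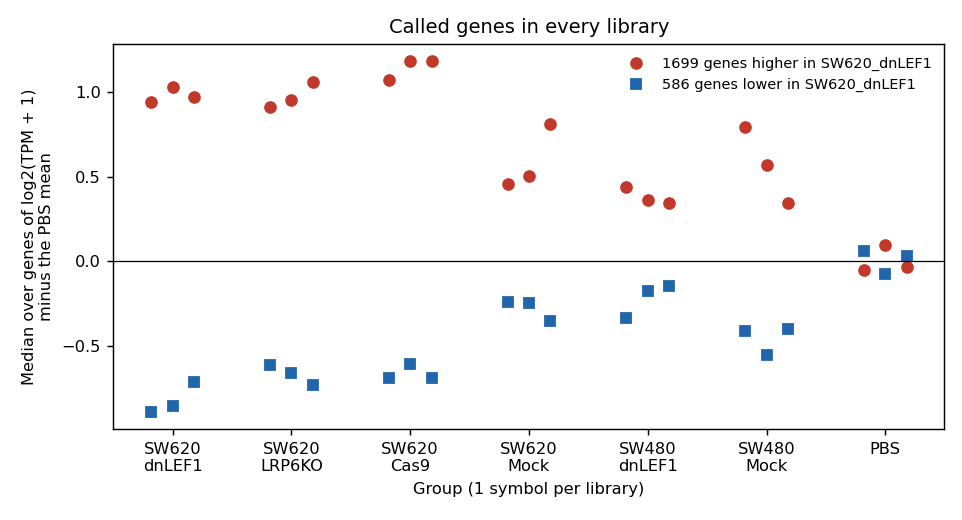
Median of log2(TPM + 1) minus the PBS mean over the 1699 genes called higher (red circles) and the 586 genes called lower (blue squares) in SW620_dnLEF1 against PBS, 1 symbol of each kind per library. SW620_dnLEF1, SW620_LRP6KO and SW620_Cas9 libraries lie at 0.91 to 1.18 over the higher genes, above SW620_Mock and both SW480 groups at 0.35 to 0.81.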

How the data were processed

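The deposited mouse table gives TPM per gene for 21 libraries in 7 groups of 3. Per the labels' protocols, RNA with an integrity number of at least 9 was made into Smart-seq2 libraries. Per the submitters' processing notes, Trimmomatic 0.35, Bowtie 1.2, RSEM 1.2.31 and the builds hg38 and mm10 were used. How human and mouse reads were separated is not given in the sources used here. The human table was not used, and no library total is known, so no counting interval is given.

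A gene was tested if 3 or more libraries reached 1 TPM. The fit, by limma 3.58.1 under R 4.3.3, used log2(TPM + 1), a variance trend with level and a mean for each of the 7 groups. Each comparison had its own Benjamini-Hochberg adjustment. Differences on this scale understate changes of genes at low levels. Since 47 prepared lists of mouse gene symbols could not be joined to identifiers, the 2 identifiers with the largest called change each way, without overlap and with at least 5 TPM in the higher group, were named per comparison. The comparisons and lists were chosen with earlier results of these data known. Alternatives were another pseudocount, no filter, median-ratio scaling, only the compared groups, array weights, a replicate block, each library left out, and 2 added later.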

Additional observations from a re-analysis of the deposited data

Results flagged for a closer look

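Direct tests by limma at an adjusted p of 0.05 asked whether the difference of SW620_dnLEF1 hosts from PBS was that of other hosts. It differed from that of SW480_dnLEF1 in 592 genes and from that of SW620_Mock in 5 genes. Against SW620_Mock, 2364 genes had an unadjusted limma p under 0.05. The count against SW620_Mock was 0 without SW620_dnLEF1 replicate 2 or SW620_Mock replicate 1, where 2062 and 1835 genes had an unadjusted limma p under 0.05. In the tests added later the count was 47 against SW480_Mock, 2 against SW620_Cas9 and 0 against SW620_LRP6KO. Genes at an unadjusted limma p under 0.05 numbered 3294 against SW480_dnLEF1 and 3144 against SW480_Mock. They numbered 1352 against SW620_Cas9 and 1122 against SW620_LRP6KO.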

How the results depend on the processing

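Against PBS, the count of 2285 calls stayed within 1.5 times under array weights (2786), median-ratio scaling (2491), a pseudocount of 0.1 (2410), only the compared groups in the fit (1740), no lower limit on TPM (1657), a mean of at least 5 TPM (1879) and leaving out SW480_Mock replicate 2 and SW620_LRP6KO replicate 1 (2347), and ranged from 1443 to 1888 with 1 library left out. These are counts and not shares of the genes tested. The genes tested against PBS were 19672 in the main fit, 47472 without a lower limit on TPM, 16061 with only the compared groups and 10560 at 5 TPM. The share called was therefore lower than in the main fit without a lower limit and higher at 5 TPM. Of the 4 genes named against PBS, 3 kept direction and call under all 14 alternatives. Against SW620_Mock, the count of 5 became 15 with a pseudocount of 0.1, 3 without a filter and 27 with only the compared groups. It was 319 with array weights, 44 with a mean of at least 5 TPM, and 0 to 143 with 1 library left out. These counts need not hold the same genes. The 27 held none of the 4 genes named against SW620_Mock (limma adjusted p 0.0819 to 0.17). Against SW480_dnLEF1, the count of 592 of 19672 genes tested became 270 of 47472 without a filter and 309 of 15989 with only the compared groups. It became 2849 with array weights, and 166 to 891 with 1 library left out. The causes were not tested. No named gene changed direction. Calls against SW620_Mock were lost in 4 of 14 alternatives for ENSMUSG00000031972.5, 7 for ENSMUSG00000072941.5, 3 for ENSMUSG00000034785.14 and 4 for ENSMUSG00000029499.11. Those against SW480_dnLEF1 were lost in 5 for ENSMUSG00000031258.4, in 1 for ENSMUSG00000056071.12 and ENSMUSG00000093276.1 each (without SW480_dnLEF1 replicate 2, adjusted p 0.051 and 0.0712), and in 0 for ENSMUSG00000047562.3. With the replicate number as a block the counts were 2032, 6 and 464, and of the named calls ENSMUSG00000072941.5 against SW620_Mock was lost (adjusted p 0.0664). Same-numbered libraries of SW620_dnLEF1 and PBS had correlations of their deviations from group means of 0.02, -0.0013 and 0.07, so the numbers were not taken to pair libraries. TPM hold no depth, and with 3 libraries a group small differences, and those of genes under 1 TPM, may be missed.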
